A study of Mus musculus with 27 samples.

Results

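The interleukin-1 family genes described here are 4 ligands (Il1a, Il1b, Il33 and Il18), the receptor antagonist Il1rn, the binding protein Il18bp, the receptors Il1r1, Il1rl1 and Il1rap and the decoy receptor Il1r2, taken by symbol from the count table of a mouse model of radiation proctitis. Each symbol had its own row, so 10 genes of the 19690 in the table were examined. The RNA came from rectal tissue of 27 female C57BL/6 mice (C57BL/6J in the study's methods), 8 to 10 weeks old at the start, in 9 groups of 3. In 5 groups the mice were anesthetized and 1 cm of the lower pelvis received a single dose of 25 Gy of radiation, and the rectum was taken early (4 h, or 1 or 3 days) or late (2 or 8 weeks) after it. The 4 control groups were anesthetized and sham-irradiated, and were taken at 4 h, 3 days, 2 weeks and 8 weeks. The irradiated mice at 1 day were compared with the controls at 4 h. Nothing in the labels says more on how the pieces were cut or which mice shared a cage or day, and a piece of rectum can hold mucosa, muscle and, at its lower end, squamous epithelium of the anal canal.

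Interleukin-1 family cytokines are alarm signals of epithelium, stroma and myeloid cells. IL-1α (Il1a) and IL-1β (Il1b) signal through the receptor Il1r1 with the co-receptor Il1rap, while the antagonist Il1rn occupies Il1r1 without a signal and the decoy Il1r2 binds the ligands without passing one on. IL-33 (Il33), a nuclear protein of stromal and barrier cells, signals through Il1rl1 (ST2) with Il1rap, and IL-18 (Il18), which intestinal epithelium makes steadily, is neutralised by Il18bp.

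The whole counts of a library summed to between 17966356 and 23281174. Levels are given as CPM, counts scaled to the size of the library, on one TMM scale over the 27 libraries. Markers of colonic epithelium were present in every library, with a summed level of 6635 to 20940 CPM. Some libraries stood apart. At 8 weeks the markers of squamous epithelium summed to 6542, 8346 and 7755 CPM in irradiated mice, against 11.4, 13.5 and 13.8 CPM in controls. At 1 day they summed to 707 CPM in irradiated replicate 1, against 18.0 and 19.8 CPM in the other 2 irradiated mice, and at 4 h to 189 CPM in irradiated replicate 3, against 13.7 and 18.7 CPM in the other 2. At 2 weeks the 3 irradiated mice were far from alike in neutrophil markers, as given below beside Il1b.

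The RefSeq windows around the transcription starts were found for 10 of the 10 genes, 15 windows in all (table of assembly GRCm38.p6, each window matched once and exactly in mm9). The 200 bases before the start of the 3 genes that were almost silent in controls and came up together at the late times, Il1b, Il1a and Il1r2, and of the antagonist Il1rn, which was high in every library, are shown 5′ to 3′ so that they can be read side by side. Capitals mark an AP-1 site (TGACTCA on either strand) or the core GAGGAA that PU.1 prefers.
Il1b (mm9 chr2:129196876-129197075, minus strand): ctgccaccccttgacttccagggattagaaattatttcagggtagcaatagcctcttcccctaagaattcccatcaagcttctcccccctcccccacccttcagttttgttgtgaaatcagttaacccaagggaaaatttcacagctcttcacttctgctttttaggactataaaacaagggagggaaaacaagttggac
Il1a (mm9 chr2:129135709-129135908, minus strand): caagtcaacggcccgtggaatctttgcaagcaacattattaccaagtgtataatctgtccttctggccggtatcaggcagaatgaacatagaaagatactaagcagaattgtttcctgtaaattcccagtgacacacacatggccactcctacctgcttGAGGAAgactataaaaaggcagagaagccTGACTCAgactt
Il1r2 (mm9 chr1:40142738-40142937, plus strand): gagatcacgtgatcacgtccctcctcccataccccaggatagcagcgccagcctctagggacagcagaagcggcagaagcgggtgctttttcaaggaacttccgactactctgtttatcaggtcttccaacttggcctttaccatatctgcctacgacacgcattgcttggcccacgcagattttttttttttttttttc
Il1rn (mm9 chr2:24192180-24192379, plus strand): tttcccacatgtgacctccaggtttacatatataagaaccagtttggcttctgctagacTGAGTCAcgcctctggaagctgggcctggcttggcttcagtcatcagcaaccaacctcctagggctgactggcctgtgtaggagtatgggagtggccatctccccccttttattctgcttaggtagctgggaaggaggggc

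With the first transcribed base as position 0, the AP-1 letters lay at -12 to -6 in Il1a and, on the minus strand, at -141 to -135 in Il1rn. The start shown for Il1rn is the first by position. Its other windows, beginning at 24200561 and 24200641 in mm9, held no AP-1 letters. GAGGAA lay at -41 to -36 in Il1a. Neither set of letters, nor the kappa B consensus of NF-κB, was in the windows of Il1b and Il1r2. Of the 32851 windows in the RefSeq table, 5.2% held the AP-1 letters, 28.3% held GAGGAA and 8.46% held the kappa B consensus, all searched on both strands. The start used for Il1r2 lies inside the gene as annotated in mm9. These matches are letters in a window and were not tested as binding sites.

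The genes lie on 6 chromosomes in mm9. Il1r2, Il1r1 and Il1rl1 lie in a row on chromosome 1 (40141613 to 40182064, 40281925 to 40373043 and 40486415 to 40522260, all plus strand). Il1a (129125346 to 129135708, minus strand), Il1b (129190306 to 129196875, minus strand) and Il1rn (24192373 to 24207014, plus strand) are on chromosome 2. Il18bp is on chromosome 7 (109163593 to 109166669, minus strand), Il18 on chromosome 9 (50383378 to 50389942, plus strand), Il1rap on chromosome 16 (26581790 to 26730203, plus strand) and Il33 on chromosome 19 (29999604 to 30035194, plus strand). An annotated transcript runs antisense to Il1a, Il1b, Il1r2 and Il1rap, and the sources used here do not give how the counting treated strand, so reads of those partners cannot be told apart from theirs.

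**Figure D1:**
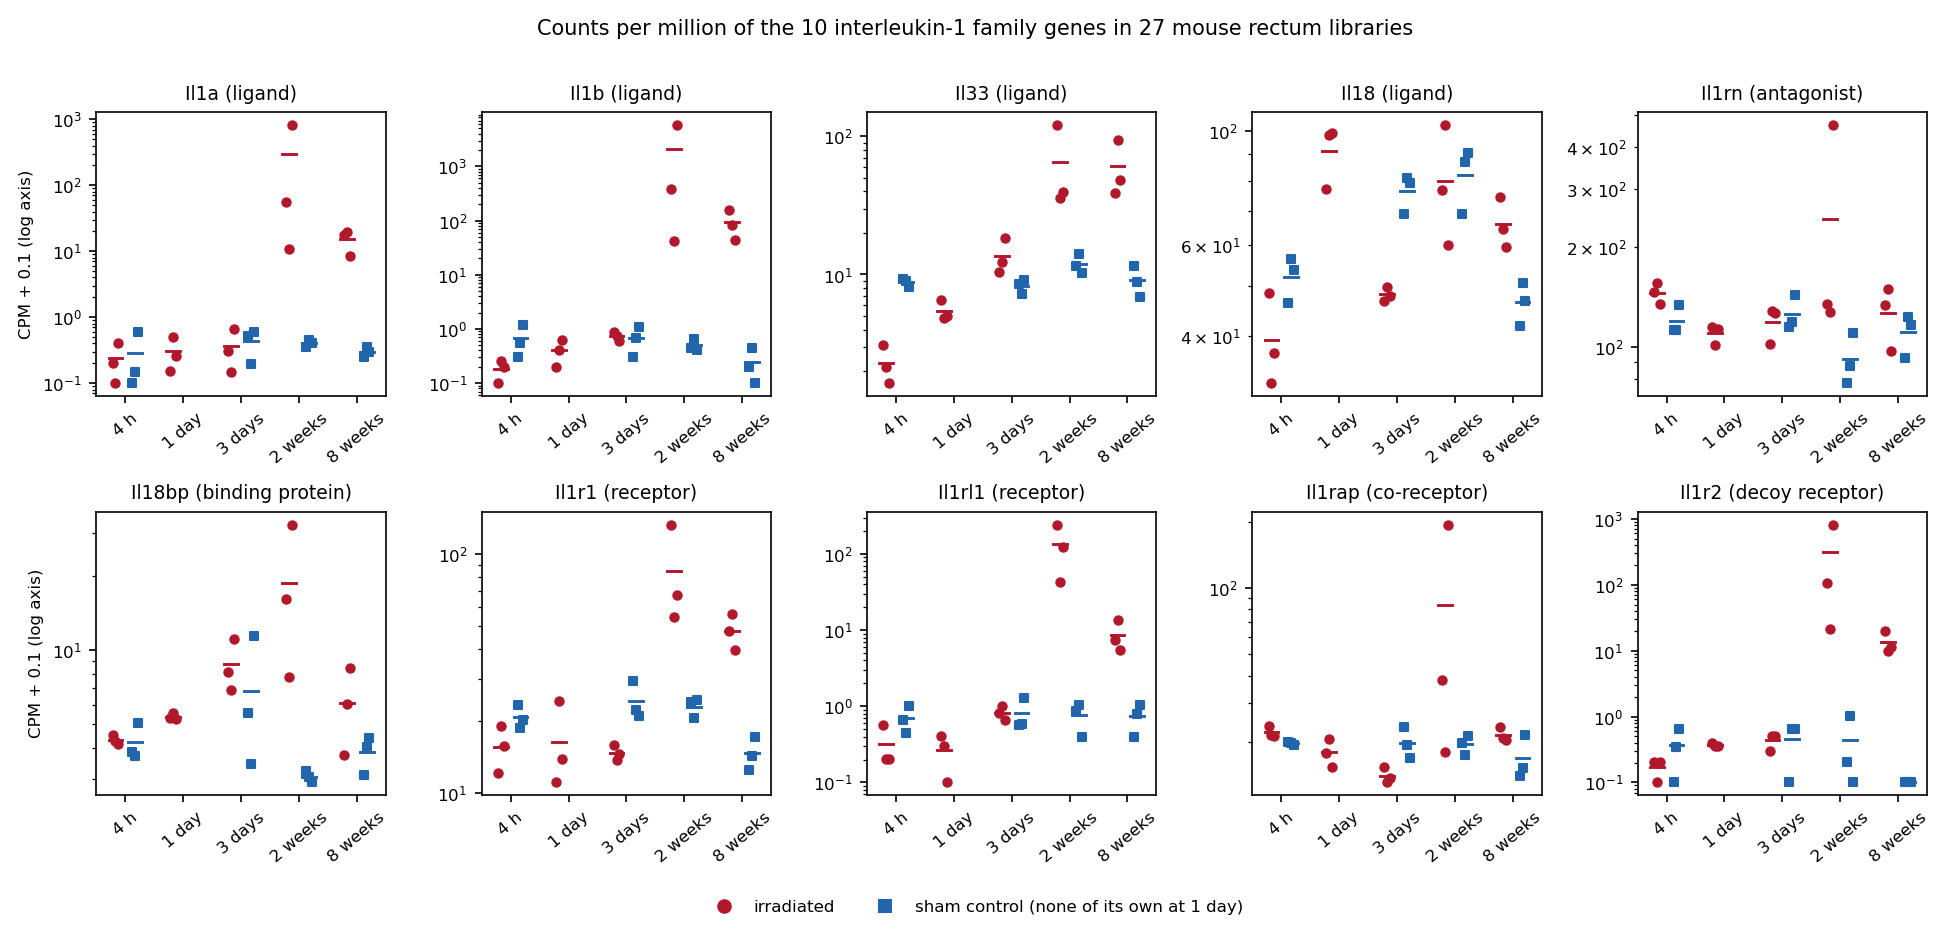
CPM of the 10 interleukin-1 family genes in each of 27 libraries over the 5 times, plotted as CPM + 0.1 on a log axis that differs between panels, with irradiated mice as circles on the left, sham controls as squares on the right and the group mean as a dash. Il1a, Il1b and Il1r2 were at most 1.11 CPM in the 21 libraries other than those of irradiated mice at 2 and 8 weeks, and at least 8.37 CPM in all 6 of those.

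At 4 h, when only the first hours of the response can be read, the ligand Il33 was the only one of the 6 genes tested that was called. Its level was 3.01, 2.05 and 1.54 CPM in irradiated mice, against 9.13, 8.84 and 8.05 CPM in controls. Each irradiated mouse was below each control, and Il33 fell by 1.998 on the log2 scale (SE 0.26, adjusted p = 0.0032, edgeR quasi-likelihood test with Benjamini-Hochberg adjustment over all genes tested, as for every adjusted p below). Less Il33 RNA per cell and fewer cells that hold it cannot be told apart in bulk tissue, and the same holds for every change below. Of the 10 genes 6 passed the filter on low counts, 0 were called higher and 1 was called lower, where 5.78% of all genes tested were called higher and 5.72% lower. With 3 mice against 3, an exact permutation test of a single gene cannot go below p = 0.1, so calls rest on the spread shared across genes.

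The other ligand that could be tested at 4 h, Il18, had 48.4, 32.3 and 37.0 CPM in irradiated mice, against 46.3, 56.2 and 53.6 CPM in controls, which overlap (adjusted p = 0.10). The antagonist Il1rn averaged 145.9 ± 10.5 CPM in irradiated mice and 119.5 ± 12.5 CPM in controls (SD, n = 3 each, adjusted p = 0.14). The remaining testable genes were also not called, with log2 fold changes of -0.43 for Il1r1, 0.15 for Il1rap and 0.01 for Il18bp. Il1a, Il1b, Il1r2 and Il1rl1 had at most 22 counts in any library of these groups and did not pass the filter.

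At 1 day Il18 was above the controls of 4 h and Il33 below them. Il18 stood at 77.1, 97.9 and 99.1 CPM in irradiated mice, against 46.3, 56.2 and 53.6 CPM in the controls of 4 h, with no overlap, and rose by 0.80 on the log2 scale (SE 0.13, adjusted p = 0.014). Il33 had 6.47, 4.77 and 4.90 CPM in irradiated mice, below each control, but with an adjusted p of 0.091 it was not called. Of 6 genes tested 1 was called higher and 0 lower, where 1.97% of all genes were called higher and 2.03% lower. With the controls of 3 days in place of those of 4 h the log2 fold change of Il18 was 0.24 (adjusted p = 0.26). The call was also lost when control replicate 1 or 3 or irradiated replicate 2 or 3 was left out (adjusted p between 0.052 and 0.064).

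Because both early irradiated groups share their controls, they were also compared directly. The irradiated mice at 1 day were higher than those at 4 h in Il18, by 1.24 on the log2 scale (SE 0.16, adjusted p = 0.0046), and in Il33, by 1.305 (SE 0.30, adjusted p = 0.028). They were lower in Il1rn, by -0.39 (SE 0.09, adjusted p = 0.031), at 115, 102 and 114 CPM at 1 day, against 147, 156 and 135 CPM at 4 h. Thus 3 of 6 genes tested were called, where 11.4% of all genes were. The call of Il18 was kept with any 1 library left out. That of Il33 was lost without any library other than irradiated replicate 1 at 4 h (adjusted p between 0.059 and 0.094), and that of Il1rn without replicate 1 or 2 at 4 h or replicate 2 or 3 at 1 day (adjusted p between 0.074 and 0.097).

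At 3 days the receptors Il1r1 and Il1rap were lower. Il1r1, the signalling receptor of both IL-1 ligands, had 15.8, 13.6 and 14.4 CPM in irradiated mice, against 29.1, 22.2 and 20.97 CPM in controls. The co-receptor Il1rap had 15.2, 12.99 and 13.6 CPM in irradiated mice, against 23.3, 19.2 and 16.8 CPM in controls. In both genes all irradiated mice were below all controls, and the log2 fold changes were -0.75 for Il1r1 (SE 0.15, adjusted p = 0.011) and -0.53 for Il1rap (SE 0.15, adjusted p = 0.038). The call of Il1rap was lost when any library other than control replicate 3 was left out (adjusted p between 0.075 and 0.14), and that of Il1r1 without irradiated replicate 2 (adjusted p = 0.056).

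Il18 also was lower at 3 days, at 46.7, 49.8 and 47.8 CPM in irradiated mice, against 68.9, 81.0 and 79.1 CPM in controls, which is a log2 fold change of -0.70 (SE 0.10, adjusted p = 0.0039). Its irradiated level was close to that of the 4 h controls, and against those controls the change was -0.12 (adjusted p = 0.44). Il33 had 10.3, 12.3 and 18.2 CPM in irradiated mice, against 8.40, 7.09 and 8.98 CPM in controls. Here the irradiated mice were all above the controls, the reverse of 4 h, with a log2 fold change of 0.71 (adjusted p = 0.068). At this time libraries with the same replicate number deviated together, and with the replicate number as a block Il33 passed the threshold as well (log2 fold change 0.68, adjusted p = 0.030), which made 4 genes called. Without the block 0 of 8 genes tested were called higher and 3 lower, where 10.4% of all genes were called higher and 10.1% lower.

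The difference between the effects at 3 days and at 4 h was tested directly in a model with an interaction term. It was 2.74 for Il33 on the log2 scale (SE 0.36, adjusted p = 0.00084) and -0.65 for Il1rap (SE 0.18, adjusted p = 0.025). These were 2 of 9 genes tested, where 17.5% of all genes were called in either direction. Without irradiated replicate 1 at 4 h, or irradiated replicate 2 or 3 at 3 days, Il1rap was no longer called (adjusted p between 0.052 and 0.065).

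At 2 weeks both IL-1 ligands and the decoy receptor appeared. Il1b, hardly counted before, had 379, 42.4 and 5729 CPM in irradiated mice, against 0.354, 0.552 and 0.301 CPM in controls. Il1a had 56.3, 10.8 and 812 CPM in irradiated mice, against 0.253, 0.351 and 0.301 CPM in controls. Il1r2 had 107, 21.3 and 817 CPM in irradiated mice, against 0.101, 0.903 and 0 CPM in controls. In all 3 genes the irradiated mice stood in one order, replicate 3 above replicate 1 above replicate 2, and each was above every control. The log2 fold changes were 12.29 for Il1b (SE 2.30, adjusted p = 0.014), 9.89 for Il1a (SE 2.02, adjusted p = 0.017) and 9.85 for Il1r2 (SE 1.90, adjusted p = 0.015).

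Replicate 3 held most of these counts. Without it the log2 fold changes were 8.99 for Il1b, 6.75 for Il1a and 7.53 for Il1r2, with adjusted p = 0.00805, 0.0074 and 0.011. Markers of neutrophils, which make IL-1β and carry Il1r2, moved with the 3 genes. Their summed level without Ly6g was 4509, 1014 and 23360 CPM in irradiated mice, against 5.61, 9.23 and 6.46 CPM in controls, the same order of mice. Ly6g was left out after its values were seen, since it was at 108 to 117 CPM in these controls, where S100a8 was at 0.303 to 0.953 CPM. Of the 15 neutrophil markers 14 were tested and 12 were called higher, where 16.5% of all genes were. Mrgpra2a, Mrgpra2b and Fpr1 were at 0 in the controls. Between the controls of 2 weeks and 4 h only 3 of the markers passed the filter. Most thus entered the test through the irradiated libraries, which partly fixed the count. Markers of macrophages and monocytes summed to 2702, 882 and 3171 CPM in irradiated mice, against 188, 237 and 235 CPM in controls, and 10 of 12 were called higher. They stood in that order of mice as well, so the order was not particular to neutrophil markers. The part of either cell type in the levels of the ligands was not tested.

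**Figure D2:**
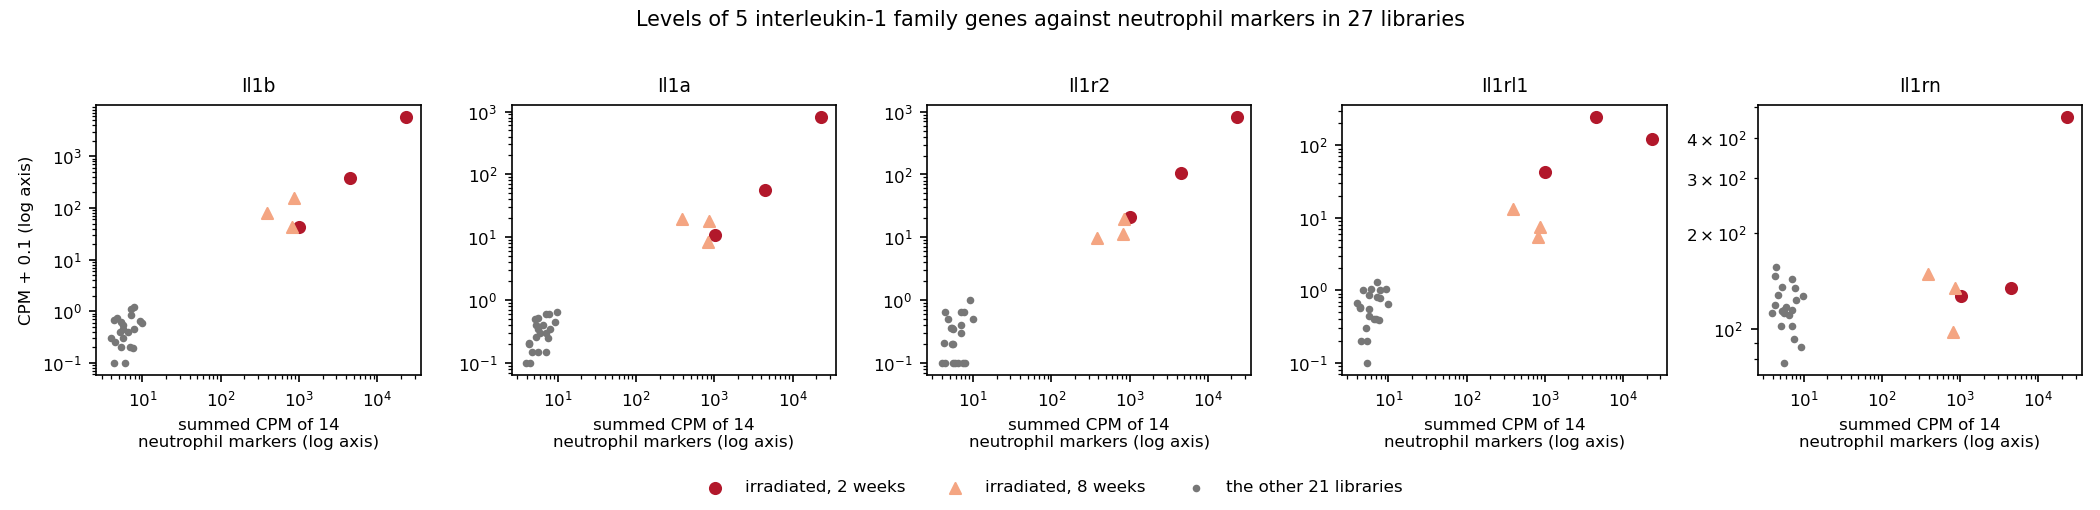
CPM + 0.1 of Il1b, Il1a, Il1r2, Il1rl1 and Il1rn (vertical, log axis) against the summed CPM of 14 neutrophil markers without Ly6g (horizontal, log axis) in 27 libraries, with irradiated mice at 2 weeks as circles, those at 8 weeks as triangles and the other 21 libraries as dots. Irradiated mice at 2 weeks reach 23360 CPM of markers beside 5729 CPM of Il1b, while Il1rl1 is highest, at 243 CPM, in the mouse with 4509 CPM of markers.

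Among the signalling receptors at 2 weeks, Il1rl1 had the largest log2 fold change. This receptor of IL-33, on mast cells, regulatory T cells and group 2 lymphoid cells, had 243, 42.5 and 123 CPM in irradiated mice, against 0.758, 0.953 and 0.301 CPM in controls. Its order of mice differed from that of Il1b, replicate 1 being highest, and its log2 fold change of 7.64 (SE 0.83, adjusted p = 0.0035) was called with any 1 library left out. Il1r1 had 132, 54.3 and 67.2 CPM in irradiated mice, against 23.8, 20.4 and 24.3 CPM in controls, a log2 fold change of 1.87 (SE 0.33, adjusted p = 0.012). Counts per gene do not separate the soluble from the membrane form of Il1rl1.

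Genes that mark the cells known for Il1rl1 were at various levels. The mast cell protease Cpa3 was at 0.338 to 1.61 CPM in irradiated mice at 2 weeks, against 0 to 1.05 CPM in controls, and Tpsb2 at 0.193 to 1.51 CPM, against 0.0501 to 0.953 CPM. Kit, a receptor of mast cells and of other cells, was at 33.1 to 60.3 CPM in irradiated mice, against 38.3 to 57.7 CPM in controls. Of 11 mast cell markers 6 were tested and 2 were called higher, and the summed level of 126, 75.6 and 925 CPM in irradiated mice, against 62.9, 47.0 and 60.5 CPM in controls, held 15.1 to 855 CPM of Hdc in irradiated mice, which neutrophils express too. Of the group 2 lymphoid and regulatory T cell markers 6 of 11 were tested and 3 were called higher and 1 lower, with a summed level of 64.0 to 90.7 CPM in irradiated mice, against 48.9 to 64.7 CPM in controls, of which Areg held 27.2 to 47.4 CPM, against 16.9 to 24.7 CPM. Il4 was at 0 in both groups. Between the controls of 2 weeks and 4 h only 4 of the mast cell markers passed the filter. Of the group 2 lymphoid and regulatory T cell markers 3 did, so the counts of both lists were partly fixed. The part of these cells in the level of Il1rl1 was not tested. Fibroblast and stroma markers summed to 4497 to 8369 CPM in irradiated mice, against 782 to 1484 CPM in controls, with 10 of 12 called higher. Over all genes 16.5% were called higher and 9.3% lower at this time. At 3 days mast cell markers summed to 264 to 382 CPM in irradiated mice, against 38.2 to 57.6 CPM in controls (1 of 3 tested called higher). Group 2 lymphoid and regulatory T cell markers then summed to 120 to 165 CPM, against 41.3 to 51.2 CPM (1 of 4 called higher), where 10.4% of all genes were. Il1rl1 averaged 0.72 CPM in irradiated mice and 0.71 CPM in controls at 3 days.

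Il33 had 120, 35.4 and 39.6 CPM in irradiated mice at 2 weeks, against 11.47, 13.99 and 10.07 CPM in controls, so it was above every control, by 2.44 on the log2 scale (SE 0.50, adjusted p = 0.017). The binding protein Il18bp had 16.1, 7.68 and 32.3 CPM in irradiated mice, against 3.13, 2.96 and 2.80 CPM in controls, a log2 fold change of 2.64 (SE 0.51, adjusted p = 0.015). Its ligand Il18 overlapped, with 76.8, 102 and 59.9 CPM in irradiated mice, against 69.0, 86.9 and 90.6 CPM in controls (log2 fold change -0.06, adjusted p = 0.87).

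The antagonist Il1rn had 135, 127 and 465.7 CPM in irradiated mice at 2 weeks, against 77.8, 87.5 and 110.3 CPM in controls. All irradiated mice were above the controls, yet replicate 3 was far above the other 2 and the gene was not called (log2 fold change 1.39, SE 0.53, adjusted p = 0.096). Without that replicate the log2 fold change was 0.50 (adjusted p = 0.084). The controls of 4 h, at 112.3 to 133.9 CPM of Il1rn, overlapped with the irradiated mice of 2 weeks. Il1rap had 38.3, 17.9 and 194 CPM in irradiated mice, against 19.7, 17.3 and 21.2 CPM in controls, which overlap (adjusted p = 0.10). With all 9 groups in 1 fit both were called, at adjusted p = 0.0013 each. DESeq2 called Il1rn (adjusted p = 0.020) and not Il1rap (adjusted p = 0.078), and without irradiated replicate 2 edgeR called both (adjusted p = 0.040 and 0.021).

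In all, 7 of 10 genes tested were called higher at 2 weeks and 0 lower, where 16.5% of all genes were called higher and 9.3% lower. Il1a and Il1r2, below the filter at every earlier time, passed it here through their irradiated libraries. So did Il1b, which had 6 to 11 counts in each control and did not pass between the controls of 2 weeks and 4 h. The calls of Il1a, Il1b and Il1r2 at 2 weeks were thus partly fixed by the filter. The 7 calls were the same without irradiated replicate 3. Without control replicate 1, 2 or 3, 1, 2 and 2 of these 7 were called, Il1rl1 each time, and the adjusted p of the others lay between 0.051 and 0.074. The median log2 fold change of the 10 genes was 2.54, beside 0.00 over all genes tested. The difference between the effects at 2 weeks and at 3 days was called for 5 of 10 genes, where 17.1% of all genes were called, at 12.23 for Il1b, 9.99 for Il1r2, 7.65 for Il1rl1, 2.62 for Il1r1 and 2.30 for Il18bp on the log2 scale (adjusted p = 0.017, 0.039, 0.0017, 0.0026 and 0.048). Leaving out 1 library ended the call in 1 of 12 cases for Il1b (control replicate 3 at 3 days, adjusted p = 0.089), in 7 of 12 for Il1r2 (replicates 2 and 3 of the controls and all irradiated mice at 3 days, and control replicates 1 and 3 at 2 weeks, adjusted p between 0.053 and 0.15) and in 10 of 12 for Il18bp (all but control replicate 2 at 3 days and irradiated replicate 2 at 2 weeks, adjusted p between 0.056 and 0.13).

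**Figure D3:**
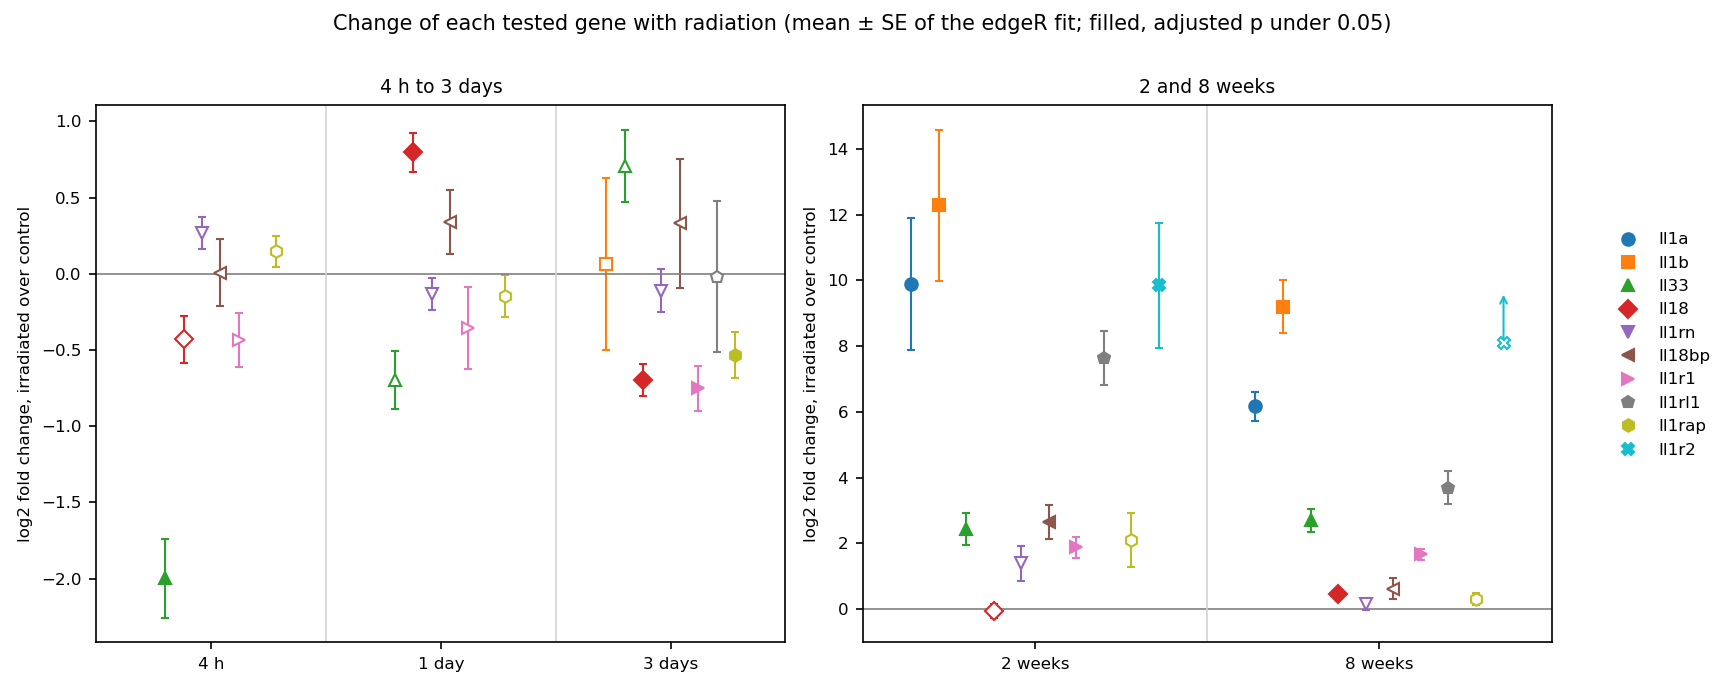
Log2 fold change of irradiated over control mice (mean ± SE of the edgeR fit, n = 3 each) for each gene that passed the filter, at the 3 early times in the left panel and at 2 and 8 weeks in the right panel, whose vertical axes differ; filled symbols have an adjusted p under 0.05, and the arrow is the lower bound for Il1r2 at 8 weeks. Changes up to 3 days lie between -1.998 and 0.80, while at 2 weeks Il1b reaches 12.29 and Il18 lies at -0.06.

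At 8 weeks the same 2 IL-1 ligands and the decoy receptor were again higher than in controls. Il1b had 158, 81.1 and 42.9 CPM in irradiated mice, against 0.0987, 0.347 and 0 CPM in controls. Il1a had 17.8, 19.2 and 8.37 CPM in irradiated mice, against 0.148, 0.248 and 0.201 CPM in controls. The log2 fold changes were 9.21 for Il1b (SE 0.80, adjusted p = 0.00020) and 6.16 for Il1a (SE 0.45, adjusted p = 0.00010). Il1r2 had 19.7, 9.63 and 11.3 CPM in irradiated mice, or 827 counts in all, against 0 counts in the 3 controls, and was at least 273.6-fold higher when the controls are given a floor of 3 counts over the group (adjusted p = 0.00031). The floor covers counting error only. The deposited FPKM table lists Il1r2 slightly above 0, at 0.0396 and 0.0404 FPKM, in 2 of these controls.

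The IL-33 pair was also higher at 8 weeks. Il33 had 39.0, 94.1 and 48.4 CPM in irradiated mice, against 11.4, 8.77 and 6.77 CPM in controls, a log2 fold change of 2.70 (SE 0.35, adjusted p = 0.0010). Il1rl1 had 7.33, 13.3 and 5.37 CPM in irradiated mice, against 0.296, 0.694 and 0.953 CPM in controls, a log2 fold change of 3.69 (SE 0.50, adjusted p = 0.0012). In both genes replicate 2 was the highest irradiated mouse, the one with the fewest neutrophil markers (389 CPM, against 854 and 822 CPM in the other irradiated mice and 5.92 to 7.88 CPM in controls). This was not particular to the pair, since replicate 2 was also highest in Il1a, Il1r1 and Il1rn (19.2, 55.7 and 149 CPM). Il1r2 was lowest in replicate 2 (9.63 CPM), but Il1b was lowest in replicate 3 (42.9 CPM). The mast cell protease Cpa3 was at 1.75 to 2.31 CPM in irradiated mice, against 0.1004 to 0.495 CPM in controls. Mast cell markers summed to 127, 81.4 and 109 CPM in irradiated mice, lowest in replicate 2, against at most 53.8 CPM in controls. Of 9 mast cell markers tested 7 were called higher, where 21.5% of all genes were. Between the controls of 8 weeks and 4 h only 4 of the 11 markers passed the filter, so that count was partly fixed. The part of mast cells in the level of Il1rl1 was not tested.

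Il1r1 had 47.4, 55.7 and 39.5 CPM in irradiated mice at 8 weeks, against 12.3, 14.2 and 17.1 CPM in controls, a log2 fold change of 1.66 (SE 0.17, adjusted p = 0.00034). Over 11 other settings, among them the controls of 4 h, its log2 fold change lay between 1.19 and 1.80, and it was called in each. Il18 had 74.3, 64.3 and 59.4 CPM in irradiated mice, against 41.8, 50.6 and 46.8 CPM in controls, a smaller change of 0.47 (SE 0.13, adjusted p = 0.024). That call was lost without control replicate 1 or 3 (adjusted p = 0.087 and 0.080) and against the controls of 4 h (log2 fold change 0.34, adjusted p = 0.086). The inhibitors overlapped their controls. Il1rn had 134, 149 and 97.5 CPM in irradiated mice, against 92.9, 123 and 117 CPM in controls (log2 fold change 0.15, SE 0.18, adjusted p = 0.53). Il18bp had 3.64, 5.92 and 8.37 CPM in irradiated mice, against 3.01, 3.96 and 4.32 CPM in controls (log2 fold change 0.62, adjusted p = 0.17), and Il1rap had a log2 fold change of 0.31 (adjusted p = 0.20).

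Thus 7 of 10 genes tested were called higher at 8 weeks and 0 lower, where 21.5% of all genes were called higher and 16.5% lower. The median log2 fold change of the 10 genes was 2.18, beside 0.01 over all genes. Il1a, Il1b and Il1r2, with 0 to 7 counts in each control, passed the filter through their irradiated libraries, so their calls were partly fixed by it. Markers of squamous epithelium, a tissue known for Il1a and Il1rn, rose in the same libraries (18 of 18 called higher). Between the controls of 8 weeks and 4 h only 5 of the 18 passed the filter, so that count was partly fixed too. Macrophage markers summed to 697 to 819 CPM in irradiated mice, against 233 to 284 CPM in controls, and 9 of 12 colonic epithelium markers were called lower. The part of these cells and tissues in the family's levels was not tested. The difference between the effects at 8 and 2 weeks was called for 0 of the 10 genes by edgeR, where 1.28% of all genes were called. At an unadjusted p under 0.05 it took 2 of the 10, and DESeq2 called 2. It was -3.94 for Il1rl1 (SE 1.03, adjusted p = 0.092) and -3.08 for Il1b (SE 3.46, adjusted p = 0.70), and without irradiated replicate 3 at 2 weeks it was 0.23 for Il1b.

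Few of these genes were called between the sham controls. At 3 days against 4 h edgeR called 0 of 9 genes, where 0% of all 14464 genes were called. At an unadjusted p under 0.05 there were 1 of the 9 and 2299 of all genes, and DESeq2 called 1 and 522. At 2 weeks against 4 h Il18 was called higher, by 0.66 on the log2 scale (SE 0.13, adjusted p = 0.026), the only one of 7 genes tested, where 6.61% of all genes were called. That call was lost without control replicate 1 or 3 of 4 h or replicate 2 or 3 of 2 weeks (adjusted p between 0.054 and 0.099). At an unadjusted p under 0.05 there were 3 of the 7 and 3764 of all genes, and DESeq2 called 1 and 1772. Besides Il18 these were Il33 (log2 fold change 0.45, adjusted p = 0.12) and Il1rn (-0.38, adjusted p = 0.14). In neither did the controls of 2 weeks overlap with those of 4 h. At 8 weeks against 4 h edgeR called 0 of 7 genes, where 2.82% of all genes were called, with 1 of the 7 at an unadjusted p under 0.05 and 1 called by DESeq2. The gene at an unadjusted p under 0.05 was Il1r1. Its controls had 12.33 to 17.11 CPM at 8 weeks, against 18.65 to 23.25 CPM at 4 h, with no overlap (log2 fold change -0.49, adjusted p = 0.093). Il18 in controls was 52.0 ± 5.2 CPM at 4 h, 76.3 ± 6.5 CPM at 3 days, 82.2 ± 11.6 CPM at 2 weeks and 46.4 ± 4.4 CPM at 8 weeks (SD, n = 3 each), so its controls differed between times as well.

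Ordered by mean level, the 9 groups gave different ladders for different members. For Il33 irradiated mice held both ends, at 64.9 ± 47.5 CPM at 2 weeks and 60.5 ± 29.4 CPM at 8 weeks at the top and 5.38 ± 0.95 CPM at 1 day and 2.20 ± 0.75 CPM at 4 h at the bottom (SD, n = 3 each), and the steps from 8 weeks down to 3 days, from the lowest controls down to 1 day and from 1 day down to 4 h were free of overlap. Neighbours among its 4 control groups overlapped. For Il1b and Il1a irradiated mice at 2 and 8 weeks overlapped with each other and stood apart from the other 7 groups, whose neighbours all overlapped. For Il1rn every neighbouring pair of groups overlapped, with means between 91.9 and 242.4 CPM. The highest mean of Il18 was that of irradiated mice at 1 day, 91.4 ± 12.4 CPM (SD, n = 3), which overlapped with the controls of 2 weeks next to it.

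To set ligands against the antagonist and the decoy, the log2 ratio of their counts was taken within each library, where library size cancels. The ratio of Il1b to Il1rn was 1.49, -1.58 and 3.62 in irradiated mice at 2 weeks, against -7.68, -7.25 and -8.41 in controls. At 8 weeks it was 0.23, -0.88 and -1.18 in irradiated mice, against -9.56, -8.37 and -12.18 in controls. The irradiated mice were thus above the controls at both times, by 8.96 and 9.43 on the log2 scale. Each control held 6 to 11 counts of Il1b at 2 weeks and 0 to 7 at 8 weeks. The value of -12.18 rests on 0 counts of Il1b, so the size of the difference at 8 weeks depends on the pseudocount. At 4 h they were below, at -12.46, -9.76 and -10.04, against -8.94, -7.92 and -6.89 in controls, but on 0 to 3 counts of Il1b in each irradiated library. The ratio of Il1a to Il1rn differed by 6.79 at 2 weeks and 5.83 at 8 weeks, again with no overlap.

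Set against the decoy, Il1b gave ratios that overlapped. The ratio of Il1b to Il1r2 was 1.83, 0.99 and 2.81 in irradiated mice at 2 weeks, against 1.59, -0.69 and 3.70 in controls, and 3.00, 3.07 and 1.93 in irradiated mice at 8 weeks, against 2.32, 3.91 and 0.00 in controls. The groups overlapped at all 5 times, the control values at these late times rest on 0 to 18 counts of each gene, and the sign of the difference of 0.35 at 2 weeks and 0.59 at 8 weeks turned with the pseudocount. The signalling receptor Il1r1 was lower relative to the decoy, with a ratio of 0.31, 1.35 and -3.60 in irradiated mice at 2 weeks, against 7.56, 4.46 and 9.93 in controls, and with 1.26, 2.53 and 1.81 in irradiated mice at 8 weeks, against 8.97, 9.17 and 9.42 in controls. Il1r2 had 0 counts in the 3 controls of 8 weeks, so the size of their ratios was set in part by the pseudocount. From FPKM (pseudocount 0.1) the ratios at 8 weeks were -0.50, 0.72 and 0.13 in irradiated mice, against 4.42, 5.04 and 4.82 in controls.

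For the IL-33 pair the ratio of Il33 to Il1rl1 was -1.02, -0.26 and -1.64 in irradiated mice at 2 weeks, against 3.88, 3.84 and 4.95 in controls, with no overlap. At 8 weeks it was 2.41, 2.82 and 3.17 in irradiated mice, against 5.16, 3.61 and 2.80 in controls, which overlap. The ratio of Il18 to Il18bp was 2.25, 3.73 and 0.89 in irradiated mice at 2 weeks, against 4.45, 4.86 and 5.002 in controls, and overlapped at the other 4 times. Of 30 ratio tests (6 pairs at 5 times) 9 had groups that did not overlap and gave the smallest two-sided p an exact permutation test of 3 against 3 allows, 0.1, and after Benjamini-Hochberg adjustment the lowest p was 0.33.

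Compared per length, in FPKM, the antagonist was above Il1b in every control at the late times. At 8 weeks Il1rn had 75.8, 83.1 and 57.1 FPKM in irradiated mice, against 52.0, 69.8 and 63.4 FPKM in controls. Il1b had 135, 68.0 and 35.6 FPKM in irradiated mice, against 0.125, 0.289 and 0.0418 FPKM in controls. The level of Il1b was thus above that of Il1rn in 1 of 3 irradiated mice at 8 weeks and, with 313, 35.96 and 4990 FPKM against 72.1, 68.1 and 298.5 FPKM of Il1rn, in 2 of 3 at 2 weeks.

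**Figure D4:**
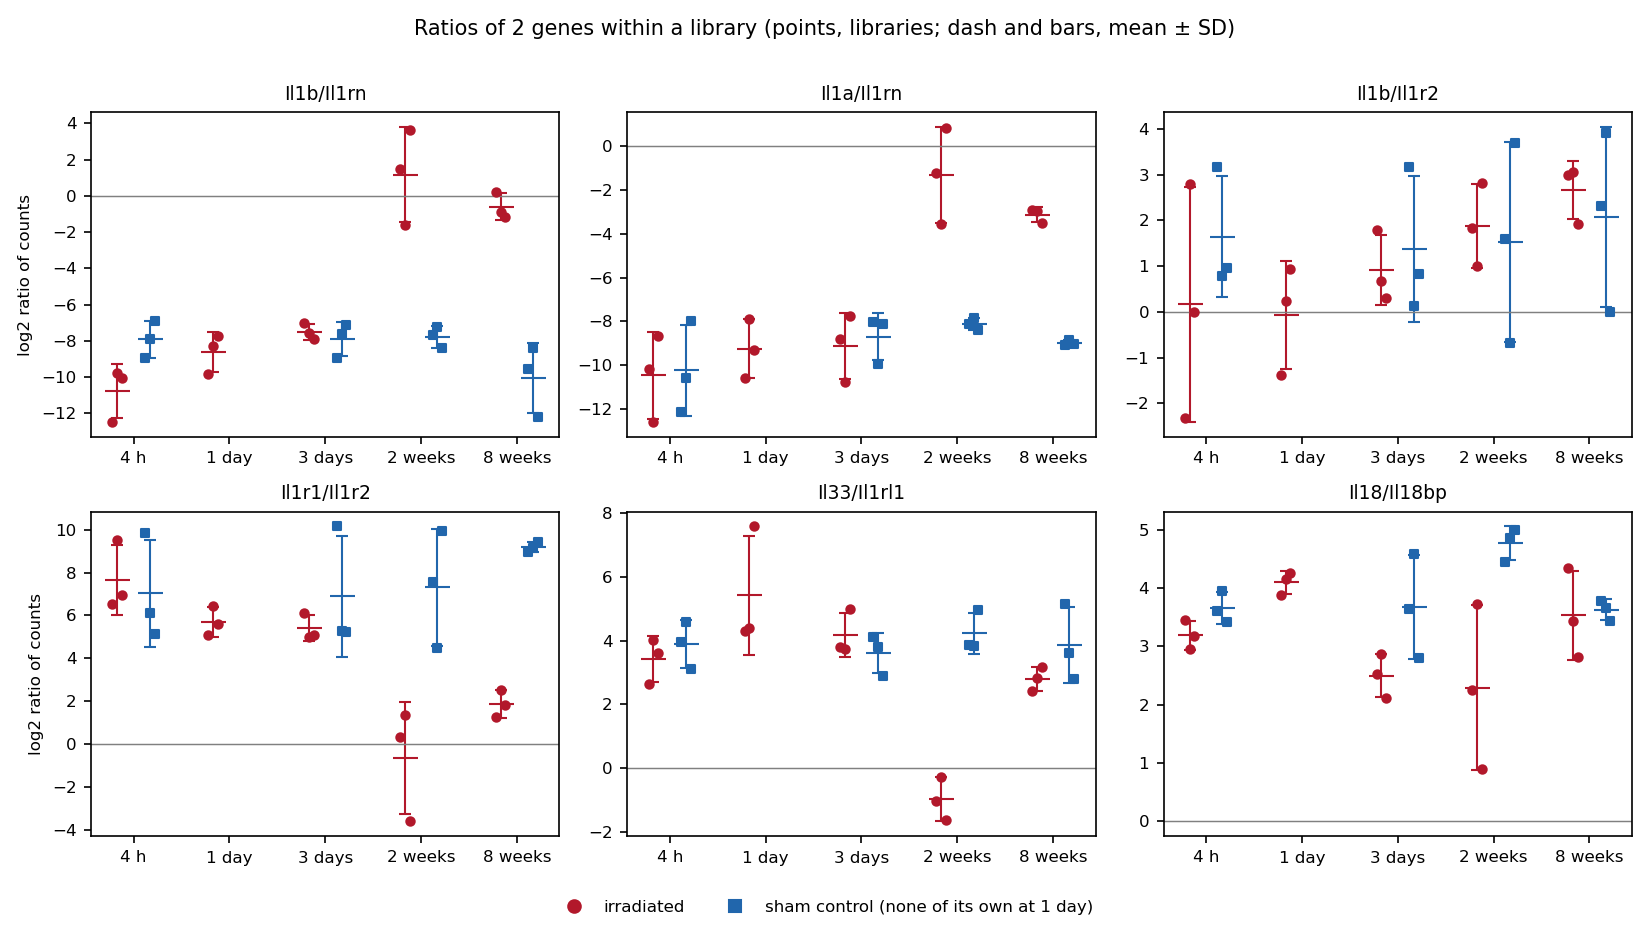
Log2 ratio of the counts of 2 genes in each library (pseudocount 0.5) for 6 pairs at 5 times, with irradiated mice as circles on the left and sham controls as squares on the right, and the mean ± SD of each group (n = 3) as a dash and bars. The ratio of Il1b to Il1rn is between -1.58 and 3.62 in irradiated mice at 2 weeks, against -8.41 to -7.25 in controls, while that of Il1b to Il1r2 overlaps at every time.

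Across the 27 libraries Il1a, Il1b and Il1r2 had Pearson's r of log2(CPM + 0.5) of 0.981 to 0.987 with each other, and Il1rl1 of 0.930 to 0.948 with these. Il18 had an r of at most 0.37 with any other member. These values describe libraries that share their times and groups, and irradiated mice at 2 and 8 weeks set most of them. The genes most like Il1b were the neutrophil attractants Cxcl2 (r = 0.992) and Cxcl3 (r = 0.991) and the myeloid receptor Trem1 (r = 0.989), whose r fell to 0.312, 0.333 and 0.593 over the 21 libraries left without those mice. Trem1, Hdc and Retnlg were most like Il1r2 (r = 0.988, 0.987 and 0.987), and Prtn3, Csf3 and Nppc most like Il1rl1 (r = 0.978, 0.977 and 0.976).

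Il18bp was most like Cxcl9 (r = 0.906, and 0.854 over the 21 libraries), Mpp1 and Nlrc5. Il33 was most like Hdac9 (r = 0.934, and 0.756 over the 21), Man1c1 and Rab3il1. Il18 was most like Bco2 (r = 0.844, and 0.870 over the 21). Il1rn was most like the chemokine-binding receptor Ccrl2 (r = 0.909, and 0.768 over the 21), Il1r1 like Clec4a3 (r = 0.930, and 0.512 over the 21) and Il1rap like Ppt1 (r = 0.970, and 0.711 over the 21).

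Of the other ligands and receptors of the family, 10 are in the table. At 2 weeks 4 were tested and 4 called higher, where 16.5% of all genes were, at 8 weeks 6 were tested and 6 called higher, where 21.5% of all genes were, and at the 3 early times 0 of the 3, 2 and 3 tested were called. Genes at or near 0 in controls passed the filter through the irradiated group, which partly fixed these counts. The receptor pair of IL-18 was higher at 2 weeks: Il18r1 averaged 9.30 ± 5.72 CPM in irradiated mice and 0.352 ± 0.203 CPM in controls at 2 weeks (log2 fold change 4.69, adjusted p = 0.0091), and Il18rap 35.0 ± 39.5 CPM in irradiated mice and 0.218 ± 0.058 CPM in controls (log2 fold change 7.28, adjusted p = 0.011, SD, n = 3 each). The receptor of the IL-36 cytokines, Il1rl2, averaged 14.2 ± 4.3 CPM in irradiated mice and 4.62 ± 0.37 CPM in controls (adjusted p = 0.0082). These controls were low beside those of other times. Il1rl2 had 17.2, 10.5 and 12.2 CPM in the controls of 4 h. It averaged 12.5 ± 2.5 CPM in those of 3 days (SD, n = 3) and had 12.9, 8.27 and 8.88 CPM in those of 8 weeks. The irradiated mice of 2 weeks, at 19.2, 11.1 and 12.3 CPM, overlapped with the controls of each of these times.

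IL-36γ (Il1f9 in the table), an epithelial cytokine, had 415, 53 and 3375 counts in irradiated mice at 2 weeks, against 1, 0 and 2 counts in controls, a ratio of 1261 with a 95% counting interval of 431 to 6115. Replicate 3 held most of these counts, and without it the ratio was 232.9 with an interval of 79.2 to 1133, a check added after the values were seen. Both intervals cover counting error only, not the spread between mice. By edgeR, which takes that spread in, Il1f9 had a log2 fold change of 10.10 at 2 weeks (SE 2.09, adjusted p = 0.018). At 8 weeks it had 494, 594 and 492 counts in irradiated mice, against 0 in controls, at least 522.7-fold higher with a floor of 3 counts over the group. The relatives Il1f6 (IL-36α), Il1f8 (IL-36β) and Il1f5 (the IL-36 receptor antagonist) had 213, 207 and 205 counts over the 3 irradiated mice at 8 weeks, against 0 in controls, though replicate 2 gave 1 of the counts of Il1f5. At 1 day Il1f6, Il1f8 and Il1f9 were counted in irradiated replicate 1 alone, with 13, 18 and 24 counts. That is the library with 707 CPM of squamous markers, and the part of squamous epithelium in these counts was not tested.

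Downstream of the receptors, of 17 shared adaptors and kinases 1, 0, 1, 1 and 2 were called higher over the 5 times, in order, and 0, 0, 0, 0 and 3 lower. Over all genes 5.78%, 1.97%, 10.4%, 16.5% and 21.5% were called higher at these times, and 5.72%, 2.03%, 10.1%, 9.3% and 16.5% lower. Irak3, the inhibitory kinase of the pathway, averaged 44.3 ± 39.8 CPM in irradiated mice and 3.92 ± 0.80 CPM in controls at 2 weeks (log2 fold change 3.49, adjusted p = 0.018) and 11.1 ± 2.8 CPM in irradiated mice and 3.84 ± 0.31 CPM in controls at 8 weeks (log2 fold change 1.49, adjusted p = 0.0024). The adaptor Myd88 was higher at 4 h, by 0.54 on the log2 scale (adjusted p = 0.0090), and at 8 weeks, by 0.33 (adjusted p = 0.025). At 8 weeks Peli1, Irak2 and Ikbkg fell by 0.74, 0.58 and 0.42.

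The genes that process IL-1β and IL-18 moved in both directions. Of 17 in the table, 14, 13, 13, 16 and 17 were tested over the 5 times, in order. At 4 h 2 were called higher and 0 lower, at 1 day 0 and 1, and at 3 days 4 and 4. The counts were 4 and 2 at 2 weeks and 4 and 7 at 8 weeks, beside the same shares over all genes. Genes at or near 0 in controls, such as Gsdmc and Nlrp3 at 8 weeks, passed the filter through the irradiated group. At 3 days the higher ones included Nlrc4, Gsdmd and Casp8, by 0.56, 0.52 and 0.50 on the log2 scale. At 4 h Casp4, which senses bacterial lipopolysaccharide, averaged 53.4 ± 13.1 CPM in irradiated mice and 16.5 ± 5.0 CPM in controls (log2 fold change 1.67, adjusted p = 0.0046). At 3 days, when Il18 was lower, so were the protease Casp1 that cleaves it (99.2 ± 4.7 CPM in irradiated mice and 164.1 ± 19.8 CPM in controls, log2 fold change -0.76, adjusted p = 0.0044), the adaptor Pycard (-1.002, adjusted p = 0.0018) and the epithelial sensor Nlrp6 (-1.36, adjusted p = 0.0023). Such a match did not hold at other times. Pycard was also lower at 1 day (-0.52, adjusted p = 0.026), when Il18 was higher. Nlrp6 was also lower at 2 weeks (-1.30, adjusted p = 0.0082), when Il18 was not called, and at 8 weeks (-1.62, adjusted p = 0.0014), when Il18 was higher. The myeloid sensor Nlrp3 also rose at the late times, to 115.7 ± 169.9 CPM in irradiated mice, against 0.251 ± 0.0865 CPM in controls at 2 weeks (log2 fold change 8.81, adjusted p = 0.021), and 11.01 ± 2.45 CPM, against 0.183 ± 0.105 CPM at 8 weeks (log2 fold change 5.83, adjusted p = 8.0e-05).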

How the data were processed

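Bulk RNA from 27 rectums was sequenced from poly(A) libraries (NEBNext Ultra). The authors deposited whole counts per gene and FPKM values for the same 19690 genes. The submitters' processing notes name fastp 0.18.0, HISAT2, StringTie 1.3.1 and RSEM with the build mm9, while the sources used here name neither the program behind the whole counts nor its strand setting. Every column of sample values was used (0 were left out). The deposited counts are raw, and the authors scaled FPKM by length and depth.

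Each irradiated group was compared with its controls in edgeR 4.0.16 (R 4.3.3; TMM, filterByExpr, quasi-likelihood test, only the groups compared in the fit), with Benjamini-Hochberg adjustment over all genes tested and calls at an adjusted p under 0.05. FPKM values were used for levels between genes and in limma 3.58.1. Ratios of counts took a pseudocount of 0.5 and exact permutation tests (scipy 1.17.1). The scripts were tested on simulated data. The labels give mice of a group replicate numbers, and p-values measure the spread between these mice. Same-numbered irradiated and control libraries at 3 days deviated together (r = 0.326, 0.375 and 0.43, other pairs at most 0.0741), and at no other time did all 3 pairs pass 0.1. No pair of replicates agreed within sampling noise. The 10 genes, the pathway lists and the marker lists were chosen with earlier results of these data known. Named were all 10 genes, in each pathway list up to 3 genes with the smallest p per direction and time, the IL-36 genes, and the 3 genes most like each member. Alternatives were other scalings, filters, tools (DESeq2 1.42.0, limma), controls, thresholds, a replicate block, all groups in 1 fit and each library left out in turn.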

Additional observations from a re-analysis of the deposited data

Results flagged for a closer look

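For 7 of the results above, the effect of radiation on the same gene differed between 2 time points by a test of the difference itself (edgeR's quasi-likelihood test of the interaction, Benjamini-Hochberg adjustment over all genes tested). Between 3 days and 4 h the log2 fold change of Il33 differed by 2.74 (adjusted p = 0.00084) and that of Il1rap by -0.65 (adjusted p = 0.025). Between 2 weeks and 3 days that of Il1b differed by 12.23 (adjusted p = 0.017), Il1r2 by 9.99 (adjusted p = 0.039), Il1rl1 by 7.65 (adjusted p = 0.0017), Il1r1 by 2.62 (adjusted p = 0.0026) and Il18bp by 2.30 (adjusted p = 0.048). The groups of 3 are too small for a test of single outlying libraries.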

How the results depend on the processing

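The counts of called family genes moved with the setting as follows. With DESeq2 they were 2 at 1 day, 9 for 2 weeks minus 3 days, 2 for 8 minus 2 weeks and 1 each for the controls at 3 days and 8 weeks. With limma on FPKM they were 1 for 3 days minus 4 h, 1 for 8 minus 2 weeks and 0 for the controls at 2 weeks at either pseudocount, and without a filter also 0 at 1 day, 1 at 3 days and 1 for irradiated 1 day against 4 h. With all 9 groups in 1 fit they were 1 at 3 days, 1 for 3 days minus 4 h, 9 for 2 weeks minus 3 days, 1 for 8 minus 2 weeks and 1 for irradiated 1 day against 4 h. With the stricter limits of 0.01 for the adjusted p and 1 for the size of the log2 fold change they were 0 at 1 day, 0 at 3 days, 1 at 2 weeks, 1 for 3 days minus 4 h, 2 for 2 weeks minus 3 days, 1 for irradiated 1 day against 4 h and 0 for the controls at 2 weeks. Against the controls of 3 days 0 were called at 1 day.

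Leaving out 1 library gave 1 to 2 called genes at 4 h, 0 to 2 at 1 day, 1 to 3 at 3 days, 1 to 9 at 2 weeks, 1 to 2 for 3 days minus 4 h, 2 to 9 for 2 weeks minus 3 days, 0 to 2 for 8 minus 2 weeks, 1 to 2 for irradiated 1 day against 4 h and 0 to 1 for the controls at 2 weeks. It left the sign of small log2 fold changes undetermined: -0.0726 to 0.16 for Il18bp at 4 h, -0.34 to 0.64 for Il1b, -0.18 to 0.0024 for Il1rn and -0.25 to 0.57 for Il1rl1 at 3 days, -0.30 to 0.11 for Il18 at 2 weeks and -3.69 to 0.23 for the effect on Il1b at 8 minus 2 weeks. The same holds for the difference of log2 ratios of Il1a to Il1rn at 4 h (-1.17 to 0.89) and 3 days (-1.08 to 0.40), Il1b to Il1rn at 3 days (-0.13 to 0.78), Il1b to Il1r2 at 3 days (-1.08 to 0.44), 2 weeks (-0.76 to 1.43) and 8 weeks (-0.45 to 1.504), Il1r1 to Il1r2 at 4 h (-0.31 to 2.04), 1 day (-2.27 to 0.0816) and 3 days (-2.33 to 0.15) and Il18 to Il18bp at 8 weeks (-0.50 to 0.26).

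Other settings turned the sign of values that were not called. Il18bp at 4 h was -0.0122 with total counts only and -0.0237, -0.0257 and -0.0237 with limma (pseudocounts 1 and 0.1, and no filter), and -0.37 at 1 day against the controls of 3 days. Il1rn at 3 days was 0.0039, 0.0040 and 0.0039 with limma. Il1rl1 at 3 days was 0.0485 with total counts only, 0.15 with limma and no filter, 0.0142 with all groups in 1 fit, 0.0630 with the replicate block and 0.25 against the controls of 4 h. Il18 at 2 weeks was 0.59 against the controls of 4 h. The ratio of Il1b to Il1r2 differed by -0.45 at 2 weeks and -0.85 at 8 weeks with a pseudocount of 0.1, and that of Il1a to Il1rn at 3 days by 0.69 in FPKM. The causes were not tested. With the replicate block 2 genes were called in the controls at 2 weeks, and Il1rn of irradiated mice at 1 day against 4 h was lost (adjusted p = 0.088). The 7 genes called at 2 weeks were the same 7 under the other scalings, filters and limma settings. Over all genes, the other settings gave 312 to 2355 calls at 4 h, 144 to 1561 at 1 day, 547 to 4153 at 3 days, 867 to 6656 at 2 weeks and 2224 to 6239 at 8 weeks, beside 1657, 576, 2968, 3815 and 5739. Genes low in controls rest on few counts, so the size of their changes is set less firmly than the direction.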
